A study of Sus scrofa with 4 samples.

Results

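LOC396781 is a pig immunoglobulin heavy chain gene, listed in RefSeq with the synonym IGHG, the heavy chain of IgG. It was 1 of 3020 genes that could be named on the array, and it was read from all probes other than controls whose transcript accession in the scanner files is the RefSeq transcript NM_213828, which gave 13 of 43603 probes. The gene was chosen by its KO value, which was far below the WT mean on these same arrays, so every KO value of it is given as a description, with no test. The array set held 4 one-colour Agilent porcine arrays of spleen RNA from Minnesota miniature swine. Of these, 3 arrays were of wild-type pigs (WT 1, WT 2 and WT 3) and 1 was of an animal labelled IL2RG +/-, called KO here after the study's name for its animals. Per the study, the KO animals were cloned by somatic cell nuclear transfer from cells edited with TALENs at IL2RG, which encodes the common gamma chain of several interleukin receptors. No treatment, age or sex is given in the labels, and they do not state that the WT arrays came from separate animals, so the spread among them may be partly technical. WT 1 and KO lay on slide 1, and WT 2 and WT 3 on slide 2. Of the spots on an array, 66.1% to 72.7% were well above background, and 0 were saturated. Genes typical of spleen, such as MS4A1 and CD79A of B cells, CD3E of T cells and CD163 of macrophages, were well above background on all 4 arrays.

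An IgG molecule pairs heavy chains with light chains. B cells make the heavy chain of IgG after class switch recombination has replaced the constant part of the first heavy chain expressed, and plasma cells, the end stage of B cells, make it in far larger amounts for secretion. Spleen holds both, together with the follicles in which helper T cells drive the switch, and cytokines that signal through the gamma chain, such as IL-4 and IL-21, take part in that help. Pigs carry several closely related IgG heavy chain genes, and signal on a probe for one of them can come from RNA of another.

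The targeted gene was read first as a check of the label. IL2RG had 2 probes. On the brighter probe the log2 levels of WT 1, WT 2 and WT 3 were -0.64, -1.49 and -1.48, and that of KO was -1.98. On the other probe it was -1.18, -2.11 and -2.18 on the WT arrays and -3.95 on KO. KO was the lowest array on both probes, and limma called neither difference (adjusted p = 0.578 and 0.403 over all probes). A level here is the log2 of the processed signal minus the log2 of the 75th percentile of that array, so that 0 is the 75th percentile, and a difference of 1 is a 2-fold difference.

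LOC396781 was brightest on WT 1 and dimmest on KO, and the distance between the highest and lowest WT arrays exceeded the distance from the lowest WT array to KO. The brightest probe on average, A_72_P710376, had a processed signal of 334130 on WT 1 and 82575 on WT 2, which dropped to 7669 on WT 3 and to 313 on KO. In log2 levels these were 9.03, 6.66, 3.23 and -1.04. The WT mean of this probe was 6.30 ± 2.92 (SD, n = 3), and the KO value, which has no replicate, was lower by a log2 difference of -7.35. The error that the scanner software assigns to a member's signal was at most 14.6%, which covers the reading of a spot and not differences between animals, RNA preparations or hybridisations. All 13 probes were well above background on all 4 arrays, KO included, so their levels are measurements and not bounds. The raw spot medians of KO lay between 75.5 and 391, against a local background of 29.0 to 37.0. At the other end, the brightest member signal reached 54.5% of the scanner's saturation value.

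Over the 13 probes the arrays did not overlap. Levels ran from 8.83 to 9.37 on WT 1, with a median of 9.03. They ran from 5.09 to 7.58 on WT 2 (median 6.32), from 0.44 to 3.37 on WT 3 (median 2.96) and from -4.85 to -1.04 on KO (median -1.33). The lowest probe of each array was thus above the highest probe of the next array. All 13 probes followed the order WT 1, WT 2, WT 3, KO from high to low, an order held by 4.09% of the 33464 probes tested. With each of the 3 steps at least 2-fold, the order held for 42 tested probes (0.126%), the 13 members and 29 others. The low KO value chose the gene, so the place of KO in this order is no finding and nothing is read from these shares. The order WT 1, WT 2, WT 3 alone held for 21.6% of tested probes. The probes share the RNA of each array and are not replicates of it.

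**Figure D1:**
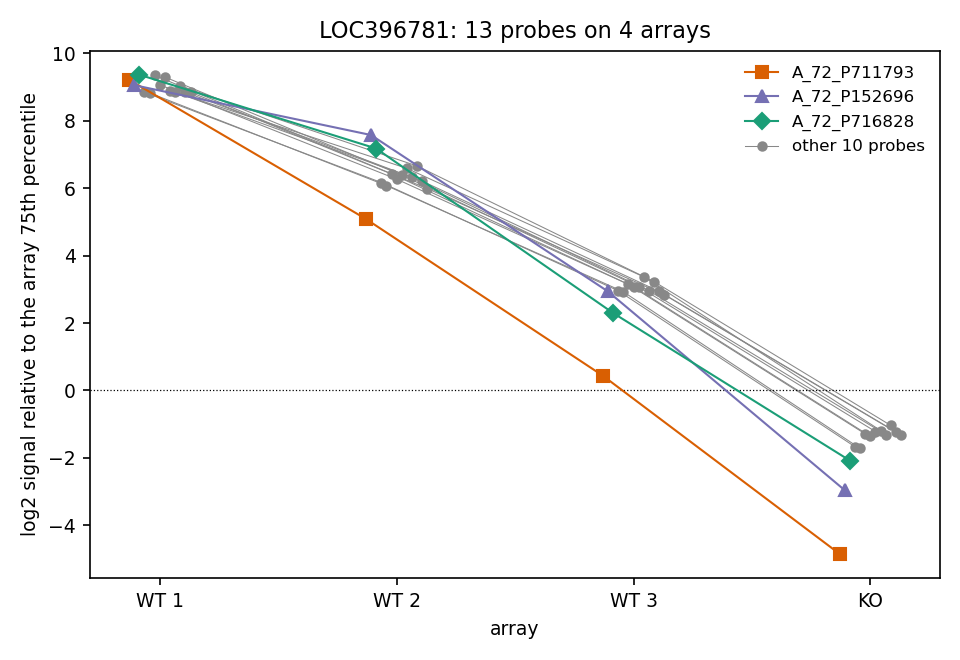
Log2 signal of each of the 13 LOC396781 probes relative to the 75th percentile of its array (vertical axis) on the 3 WT arrays and the KO array (horizontal axis). Each point is 1 probe on 1 array, and lines join the values of a probe. The 13 probes lie within 8.83 to 9.37 on WT 1 and spread to -4.85 to -1.04 on KO, and A_72_P711793 (orange squares) falls farthest.

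The WT arrays alone differed widely for this gene. The step from WT 1 to WT 2 had a median log2 difference of 2.69 over the probes (6.44-fold), and the step from WT 2 to WT 3 had 3.27 (9.68-fold). WT 1 therefore stood above WT 3 by a median of 5.99, which is 63.5-fold. The SD among the WT arrays was 2.78 to 4.39 over the 13 probes, whereas the median SD over all tested probes was 0.33. Only 311 tested probes (0.929%) had a WT SD of at least 2.78, the smallest SD among the members. The gene was chosen by KO against the WT mean and not by this spread, but the 2 quantities went together. Of the 32 tested probes with a KO difference of -7.22 or lower, 26, among them the 13 members, had a WT SD of at least 2.78. The rarity of the spread is therefore not independent of the choice. With 1 value for each WT array the spread cannot be tested.

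KO lay below the lowest WT array on all 13 probes. The step from WT 3 to KO had a median of 4.44 (21.7-fold) and ran from 4.17 to 5.89. Against the WT mean, the KO difference had a median of -7.49 and ran from -9.77 to -7.22, and 32 of the tested probes (0.0956%) reached -7.22 or lower, among them the 13 members. All 13 members were at least 2-fold below the lowest WT array, as were 4.20% of tested probes. Because this contrast chose the gene, nothing is read from that count. On slide 1, KO stood below WT 1 by a log2 difference of 10.07 to 14.08, the highest and the lowest array for this gene being on the same slide. In these spleens fewer IgG-producing cells and less of the transcript in each cell cannot be told apart.

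**Figure D2:**
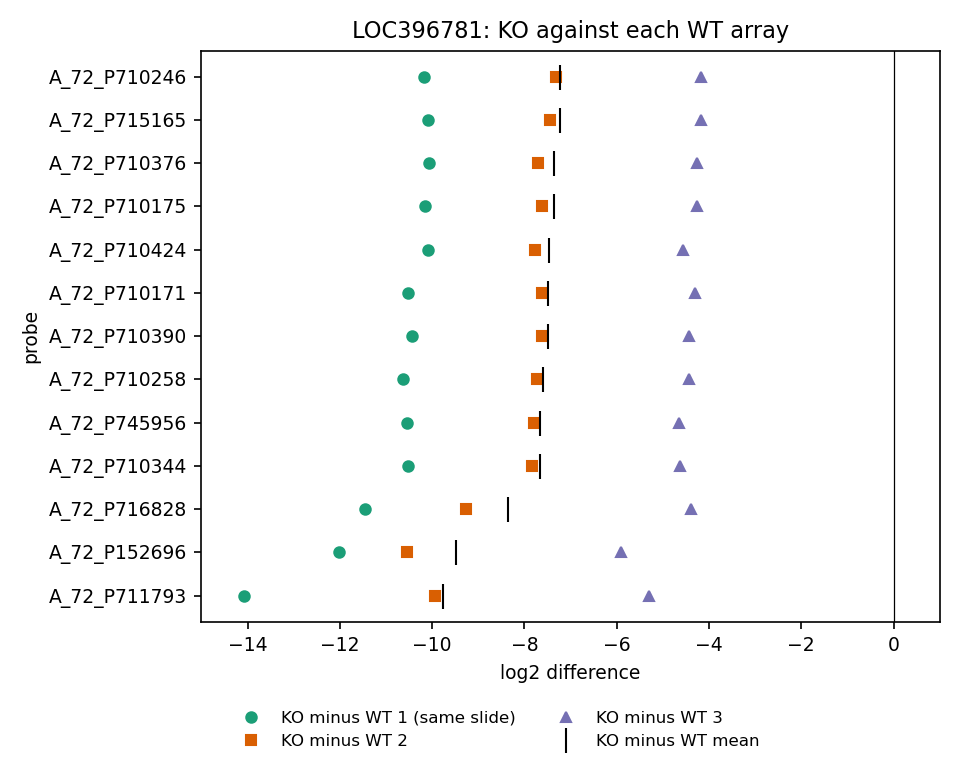
Log2 difference of KO from each WT array and from the WT mean (horizontal axis) for the 13 LOC396781 probes (vertical axis), ordered by the difference from the WT mean. Every difference is below 0, and the distance between the marks of 1 probe shows the spread among WT arrays, from -4.17 against WT 3 to -14.08 against WT 1.

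The probes fell into a tight set of 10 and a set of 3 that departed from it, a division made after their values had been seen and not tested. The 10 probes had KO differences of -7.67 to -7.22, with an SD over probes of 0.16. Within an array their SD over probes was between 0.16 (WT 3) and 0.21 (WT 2 and KO). These probes therefore gave nearly the same profile on every array. Their spots lay apart on the arrays, since member spots ranged from row 15 to row 507 of 532 and each probe had 1 spot.

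The other 3 probes were as bright as the rest on WT 1 and departed from them on the dimmer arrays. A_72_P711793 had levels of 9.22, 5.09 and 0.44 on WT 1, WT 2 and WT 3 and -4.85 on KO. It was the lowest member on WT 2, WT 3 and KO, and its fall from WT 1 to KO was 17300-fold. A_72_P152696 had levels of 9.06, 7.58, 2.94 and -2.96 in the same order. It was the highest member on WT 2 and then fell by 4.65 to WT 3 and by 5.89 to KO, the largest step to KO among the members. A_72_P716828 had levels of 9.37, 7.18, 2.30 and -2.08. It fell by 2.19 from WT 1 to WT 2, by 4.89 to WT 3 and by 4.38 to KO, so its step to KO was within the range of the 10 probes. With these 3 probes included, the SD over probes grew from 0.21 on WT 1 through 0.59 and 0.75 on the other WT arrays to 1.05 on KO. Which transcript each probe measures was not tested, since the files pair all 13 with 1 accession and hold no probe sequence.

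**Figure D3:**
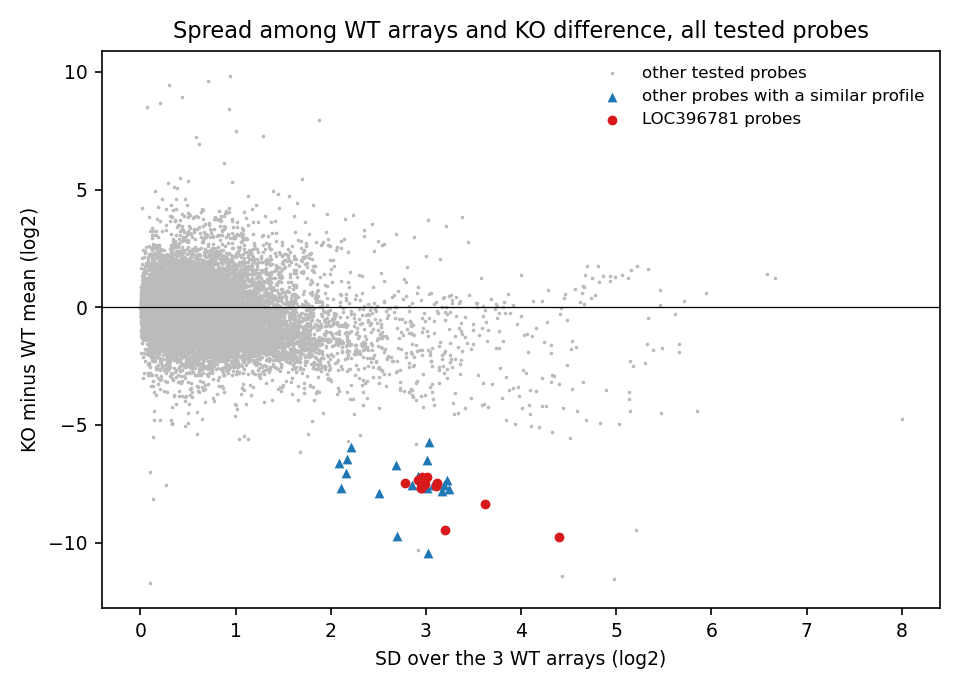
KO minus the WT mean (vertical axis, log2) against the SD over the 3 WT arrays (horizontal axis, log2) for the 33464 tested probes. LOC396781 probes (red) lie at a WT SD of 2.78 to 4.39 and a difference of -9.77 to -7.22, beside 20 other probes with a similar profile (blue triangles).

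Profiles were compared by the root mean square distance, in log2 units, between values centred on the mean of each probe over the 4 arrays. The 10 concordant members lay 0.17 to 0.32 from the mean member profile, and the other 3 at 0.51, 0.84 and 1.22. Within 1.22 there were 20 further probes, of which 19 had no gene symbol. Their KO differences ran from -10.44 to -5.72, and all 20 were well above background on the 3 WT arrays. On KO, 5 of them were not, so their KO values are upper limits and their distances are not exact. Among those measured on KO, the unnamed probes A_72_P786223 and A_72_P747409 were nearest, both at a distance of 0.14. A_72_P786223 had levels of 8.67, 5.94 and 2.65 on the WT arrays and -1.92 on KO.

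Among named genes, represented by their brightest probe, LOC100152327 was nearest to LOC396781, at a distance of 0.99. Its levels were 7.69, 4.27 and 1.65 on the WT arrays and -1.19 on KO. It was the 1 named gene among those 20 probes. CLGN, which encodes the endoplasmic reticulum chaperone calmegin, followed at 1.80 with WT levels of -1.30, -2.53 and -3.46. CLGN was not well above background on KO, where it was at least 10.4-fold below the WT mean, so its distance and place rest on a limit. Its KO difference of -5.45 became -1.35 under normexp background correction. C3H2orf40 followed at 2.48, with levels of 3.88, 2.81 and 0.83 on the WT arrays and -0.25 on KO. The B cell genes MS4A1 and CD79A completed the first 5, at 2.49 and 2.51. With 4 arrays, likeness of profile is only a description. It leaned on WT 1, since without that array TNNI1 was nearest, at 0.17, and 2 of these 5 genes were still among the nearest 5.

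Searched by symbol and synonym, the named probes held 0 other immunoglobulin chain genes, and a chain gene listed under an uninformative LOC symbol would not have been recognised. Light chains, the joining chain and other heavy chain classes were therefore not analysed here. The genes around the antibody were read from lists, with limma across all 33464 tested probes, an adjusted p below 0.05 and a 2-fold difference as the threshold. It called 0 probes lower and 0 higher in KO (0% of those tested), and 0.0715 was the smallest adjusted p of limma. Without adjustment, limma gave p under 0.05 to 1990 probes lower in KO (5.95%) and to 1785 higher (5.33%). By size alone, KO was at least 2-fold below the lowest WT array on 4.20% of tested probes and at least 2-fold above the highest on 3.42%. The middle difference, the median over tested probes, stood at -0.11.

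Some genes of B cells, which carry antibody on their surface, were low on KO as LOC396781 was, but were alike on the WT arrays. MS4A1, which encodes the surface protein CD20, had levels of 1.38, 0.38 and 1.00 on the WT arrays and -4.00 on KO. CD79A, a signalling chain of the B cell receptor, had 0.80, -0.02 and -0.13 on WT and -3.90 on KO. For both genes the WT arrays lay within about 1 log2 unit, and KO was far below each of them. The differences from the WT mean were -4.92 and -4.12, each with a standard error of 0.49, and limma called neither of them (adjusted p = 0.284 and 0.303). The WT SD of MS4A1 was 0.50, against 2.92 for the brightest LOC396781 probe. WT 1 and WT 3 lay within 1 log2 unit of each other on both genes, against a distance of 5.80 on that LOC396781 probe.

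Of the 10 B cell genes tested (of 28 listed), 0 passed the limma threshold in either direction, and 3 were lower and 1 higher at an unadjusted p under 0.05. MS4A1 and CD79A were at least 2-fold below the WT range. CD40, the receptor for T cell help, which myeloid cells also carry, was above that range, at 6.51 on KO against 4.72 to 4.93 on WT (limma, adjusted p = 0.332). The list median was 0.26. CD72, VPREB1, SYK, BTK, BLNK and RAG1 differed by 0.16 to 1.49, with adjusted limma p values of 0.487 to 0.911.

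Most of the secretory pathway genes measured were in the WT order of LOC396781, as were genes of several other lists, while on KO they lay within the WT range or near it. XBP1, the transcription factor that expands the secretory machinery of plasma cells, had levels of 7.56, 5.68 and 4.90 on the WT arrays and 5.91 on KO on its brightest probe. All 6 XBP1 probes were in the order WT 1, WT 2, WT 3, with WT 1 above WT 3 by 2.66 to 3.46. On each of them KO lay above WT 3, by 0.87 to 1.27, and below WT 1, by a log2 difference of -2.20 to -1.65. KO thus lay above WT 3 for XBP1, whereas LOC396781 on KO was at least 18.0-fold below WT 3. The XBP1 difference from the WT mean was -0.13 on the brightest probe (limma, adjusted p = 0.970).

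Of 10 genes tested for folding and export of secreted proteins (of 35 listed), 7 were in the order WT 1, WT 2, WT 3, an order found for 21.6% of tested probes. SSR1, ATF4 and CANX were not in that order. It was also held by 11 of 15 genes of help for antibody responses, 4 of 6 control genes, 7 of 12 genes of IgG binding and 4 of 8 T cell markers, so it was not particular to secretion. PDIA4, a disulfide isomerase, had levels of 5.96, 3.89 and 2.76 on WT and 4.16 on KO. HSP90B1, a chaperone for immunoglobulin chains, had 7.80, 6.45 and 5.60 on WT and 6.74 on KO. DNAJB11, a cochaperone, had 4.08, 2.69 and 1.61 on WT and 3.17 on KO. In each case KO lay between WT 1 and WT 3. KO was above WT 3 for 9 of the 10 genes, as on 43.3% of tested probes, and below WT 1 for 9, as on 51.8%. The list had a median KO difference of 0.18, and limma called 0 of its genes (0 also at an unadjusted p under 0.05). Within slide 1 the list median was -0.99. XBP1 and these 3 genes, like other genes named here from within the WT range, were chosen for display after their values had been seen.

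**Figure D4:**
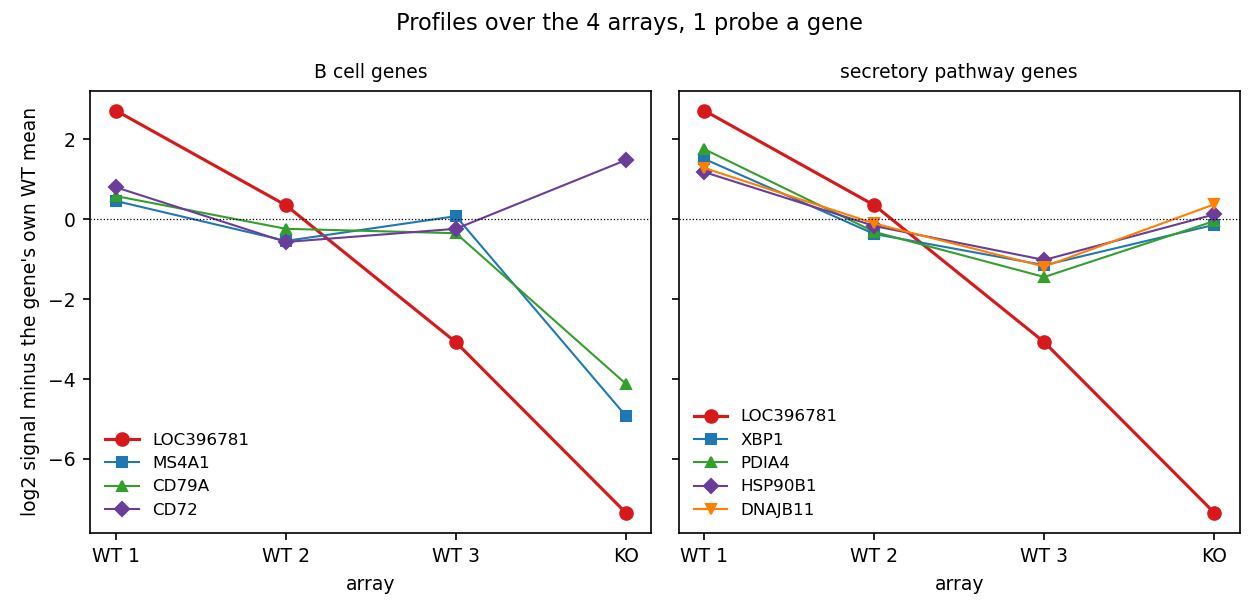
Log2 signal minus the WT mean of the same probe (vertical axis) over the 4 arrays (horizontal axis) for LOC396781 on probe A_72_P710376, with B cell genes on the left and secretory pathway genes on the right, 1 probe for each gene. MS4A1 and CD79A stay near 0 on WT and lie at -4.92 and -4.12 on KO, where CD72 is at 1.49, whereas XBP1, PDIA4, HSP90B1 and DNAJB11 fall from WT 1 to WT 3 and lie within 0.38 of 0 on KO.

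Of 19 plasma cell genes listed, only XBP1, CXCR4 and CCR10 had a named probe, and PRDM1 and IRF4 were not analysed here. Limma called 0 of the 3, with 1 lower at an unadjusted p under 0.05. That was CCR10, a chemokine receptor of antibody-secreting cells, at -1.22, -0.99 and -1.62 on the WT arrays and -3.21 on KO. Its difference was -1.93 ± 0.37 (SE), which limma did not call (adjusted p = 0.371). CXCR4, which guides plasma cells to bone marrow, had 0.75, 0.90 and 0.51 on WT and 0.25 on KO. The list median was -0.47.

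Of 5 genes tested for class switching and somatic hypermutation (of 22 listed), all were lower in KO, as were 56.9% of tested probes, with a list median of -0.53, and limma called 0 (0 also at an unadjusted p under 0.05). APEX1, an endonuclease of base excision repair, had levels of 2.73, 3.03 and 3.18 on WT and 2.18 on KO. ATM, a kinase of the response to DNA breaks, had 0.54, 0.85 and 0.92 on WT and 0.36 on KO. Both were lowest on WT 1 among the WT arrays, where LOC396781 was highest, and KO lay below all 3. Their differences were -0.80 and -0.41 (limma, adjusted p = 0.470 and 0.629).

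Genes of help for antibody responses were mostly higher in KO, where LOC396781 was lowest. Of 15 genes tested (of 21 listed), 13 were on the higher side, as were 43.1% of tested probes, and the list median was 1.47. KO was above all 3 WT arrays for 11 of them, as it was for 27.0% of tested probes. Limma called 0, with 7 higher and 1 lower at an unadjusted p under 0.05. TNFSF13B, the survival factor BAFF of B cells, had levels of -0.39, -1.94 and -2.17 on WT and 1.46 on KO. IL4R, a receptor chain that pairs with the product of IL2RG, had -0.83, -1.09 and -1.43 on WT and 0.57 on KO. TGFB1 had 2.81, 2.81 and 2.77 on WT and 4.17 on KO, and IFNG had -1.80, -3.35 and -4.63 on WT and 0.38 on KO. These 4 genes were the ones at least 2-fold above the WT range, as were 3.42% of tested probes. Their differences were 2.96, 1.69, 1.37 and 3.65 (limma, adjusted p = 0.416, 0.387, 0.371 and 0.432). IL21, a helper T cell cytokine, was well above background on KO alone, at -4.58. Its WT values of -5.46, -5.66 and -7.49 are not measurements, so no fold difference is given.

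Among genes whose products bind or carry IgG, 12 of 14 were tested, of which 11 were higher in KO (43.1% of tested probes) and 1 lower, and the list median was 0.99. KO lay above all 3 WT arrays for 11 of them, as it did for 27.0% of tested probes. Limma called 0, with 4 higher at an unadjusted p under 0.05. FCGR1A, the high-affinity IgG receptor of macrophages, had levels of -2.41, -4.99 and -5.38 on WT and -0.37 on KO (difference 3.89, limma, adjusted p = 0.440). C1S, a protease of the complement complex that binds IgG, had 3.84, 2.70 and 3.52 on WT and 5.14 on KO. FCGRT, the receptor that recycles IgG, had 6.61, 6.36 and 6.35 on WT and 7.30 on KO. PIGR, which carries polymeric antibodies across epithelia, was well above background on 2 of the 3 WT arrays and not on KO. Its WT levels were -5.23, -3.85 and -6.35. KO was at least 1.59-fold below the WT mean, a bound that does not hold against each WT array.

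Markers of other cells moved with the same arrays, and their part in the LOC396781 values was not tested. All 7 macrophage markers tested (of 11 listed) were above the WT mean in KO, as were 43.1% of tested probes, with a median of 3.08. KO was above all 3 WT arrays for 5 of them, as it was for 27.0% of tested probes. At least 2-fold above the WT range were 4, namely CD163, MRC1, CD14 and FCGR1A, as were 3.42% of tested probes. VSIG4 on KO (4.64) lay below WT 2 and WT 3 (7.21 and 6.37) and above WT 1 (-0.88). SIGLEC1 on KO (-0.58) was just below WT 1 (-0.54). Among the WT arrays 2 of the 7, FCGR1A and MRC1, were in the order WT 1, WT 2, WT 3 of LOC396781. Granulocyte markers ran opposite to LOC396781 among the WT arrays. Of the 5 tested (of 10 listed), 4 were in the order WT 3, WT 2, WT 1 from high to low, as were 25.9% of tested probes, and S100A8 had -1.17, 2.53 and 5.21 on WT and 2.01 on KO. All 3 erythroid markers tested (of 10 listed) were also lowest among WT on WT 1, where KLF1 had -4.68 against 4.06 and 4.38 on WT 2 and WT 3, and -3.17 on KO. The 8 T cell markers tested (of 12 listed) had a median difference of 0.16. CD4 was the 1 gene of that list at least 2-fold above the WT range, as were 3.42% of tested probes. Of 6 control genes, GAPDH, HPRT1, B2M, PPIA and PGK1 were higher in KO by 0.13 to 0.80. Limma called 0 genes in each of these lists, with 4 macrophage markers and 1 T cell marker higher at an unadjusted p under 0.05.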

How the data were processed

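Total RNA of spleen was amplified, labelled with Cy3 and hybridised in 1 colour per the labels. The authors extracted the deposited intensities with Agilent Feature Extraction 11.0.1.1. The authors' deposited series table holds log2 values normalised between arrays, whose sorted columns differed by at most 0.00154, and served as an alternative. Spots flagged as non-uniform or population outliers were left out, which dropped 28 probes. Processed signals were set to log2 and the 75th percentile of each array subtracted. The 33464 probes well above background on at least 1 array were tested with limma 3.58.1 (lmFit, eBayes, two-sided, Benjamini-Hochberg adjustment) in R 4.3.3, with 2 residual and 1.93 prior degrees of freedom. The script was tested on simulated data. The model takes the spread of KO from the WT arrays, and an exact permutation over 4 arrays cannot give a p below 0.25. The small number of arrays limits the precision.

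Accessions were matched without versions to RefSeq transcripts of Sscrofa11.1, which named 6686 of 43603 probes (15.3%) and 3020 genes. The files name no genome build, so no coordinates are given. The brightest probe stood for a gene. Named were all members, list genes whose KO value lay 2-fold or more beyond all WT arrays, and the 5 nearest profiles, besides genes said to be chosen later. LOC396781 and the lists (plasma cell, B cell, folding, class switch, help, IgG binding, T cell, macrophage, erythroid, granulocyte and control genes) were chosen with earlier results of these data known. Some list genes are counted in their list but not reported here by name. The mean spot signal planned for normexp is not a column of the files, so the median signal was used. Tables were read with Python 3.11.15 and pandas 2.3.3.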

Additional observations from a re-analysis of the deposited data

How the results depend on the processing

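The KO difference of LOC396781 from the WT mean, a median of -7.49 over probes, was between -7.61 and -7.19 under the 5 other scalings or tables, -7.35 on the brightest probe and -7.86 as the mean over probes. It was -10.52 within slide 1, where it is the difference from WT 1 alone, and -9.07 to -6.08 without 1 WT replicate, the extremes being without WT 3 and without WT 1. The difference from the lowest WT array was -7.71 to -4.44 without 1 WT replicate, and the WT range was 2.69 to 5.99. The values of -7.71 and 2.69 came without WT 3, the lowest WT array. The SD over probes on KO fell to 0.64 under normexp, where an offset of 50 draws dim values together. No paired analysis was possible because KO was a single array, whose label gives no replicate number.

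The 0 adjusted limma calls became 1 lower and 3 higher under normexp, 4 lower and 2 higher with an eBayes trend, and 686 lower and 647 higher by the methods' t-test without adjustment (0 after Bonferroni or Benjamini-Hochberg). Probes at least 2-fold below the WT range numbered 1405, and 902 under quantile normalisation, 232 under normexp, 457 in the deposited table, 685 when every array had to be well above background and 1646 to 4574 without 1 WT replicate, with the most without WT 1. Those above it numbered 1146, and 743 under normexp and 1337 to 2497 without 1 WT replicate, again with the most without WT 1. Of the 5 genes nearest in profile, 2 to 5 were shared without 1 WT replicate. The plasma cell median of -0.47 was -0.22 under the median shift, -1.65 within slide 1 and -0.71 to -0.38 without 1 WT replicate. The folding median was -0.99 within slide 1, the class switch median -0.28 under the median shift and the macrophage median 2.40 under normexp. The B cell median was -0.15 and the T cell median -0.21 within slide 1. XBP1 turned to 0.11 under the median shift and to 0.62 without WT 1. The causes were not tested.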
